A study of Mus musculus with 9 samples.

Results

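The 10 genes described here (Lgr5, Ascl2, Smoc2, Tnfrsf19, Rgmb, Ephb2, Ephb3, Sox9, Cd44 and Prom1) are genes known to be expressed in the stem cells at the base of the intestinal crypt or in a gradient that is highest there. They were chosen by name, with earlier results of these data known. All 10 were found among the 21498 gene symbols measured in the colon of 9 male ICR mice, an outbred strain. All mice were 5 weeks old when they were assigned, and all samples were labelled as taken at the end of week 18. Control mice (3 samples, labelled as normal mucosa of the colon and rectum) received neither AOM/DSS nor antibody. The other mice were injected once with 10 mg/kg azoxymethane (AOM), a carcinogen of the colon, and then drank dextran sulfate sodium (DSS), which injures the colon epithelium, in 3 cycles (2% for 7 days, and 1.5% for 5 days in each of the later cycles). They received 1.5 mg/kg of either IgG Ab (AOM/DSS + IgG Ab, hereafter the IgG group, 3 samples) or a neutralizing antibody to S100a9, one of the subunits of the inflammatory protein calprotectin (hereafter the anti-A9 group, 3 samples). Both antibodies were given into a vein every 2 days during the DSS cycles. The labels call the samples of both AOM/DSS groups adenocarcinoma, whereas the study's text calls the anti-A9 samples mucosa. If the tissues taken differed, their effect cannot be told apart from that of the antibody. Changes given as with anti-S100a9 antibody are therefore differences between the anti-A9 and the IgG samples, whatever their source.

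The epithelium of the colon is renewed from Lgr5-expressing cells at the crypt base, which are kept in the stem cell state by Wnt proteins and R-spondins and lose it as they move up the crypt, where BMP signals are stronger. Many genes of these cells, among them Lgr5, Ascl2, Ephb2, Ephb3, Sox9, Cd44 and Tnfrsf19, are known targets of the Wnt/beta-catenin pathway. Adenomas and carcinomas of the colon with an active Wnt pathway often express them broadly.

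Values are taken as FPKM, a unit that is stated nowhere and was read from the values themselves. FPKM are fragments scaled by transcript length and library depth, so that levels of different genes are on one scale. That scale is not sound for every gene: the abundant transcripts of Gapdh, Ppia and Rps18 reached at most 0.974 FPKM in the tables, whereas Actb had 796 to 1089. A low listed level of a gene is therefore no measure of little RNA, and orders of levels between genes hold only for the listed values. FPKM totals ranged from 308377 to 408811 per sample, and the steps between low values put the depth of the samples between 0.86 and 1.12 times that of Control replicate 1. The number of fragments is not known, so no counting error is given. S100a9 was at 0.371 to 0.859 FPKM in the Control samples, 63.1 to 267 in the IgG samples and 5.54 to 11.6 in the anti-A9 samples. Of the 7 epithelial markers (Epcam, Cdh1, Krt8, Krt18, Krt19, Cldn7 and Vil1), all were present in every sample, with summed levels of 4147 to 5491, 3860 to 5325 and 3621 to 4571 FPKM in the same order. Differences are log2(FPKM + 0.1) with standard error (SE), which understates the change of low values, and a gene is called changed where limma's moderated test over 15278 genes gave a Benjamini-Hochberg adjusted p under 0.05. Bulk RNA cannot tell fewer cells of a type from less RNA of the gene per cell.

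**Figure D1:**
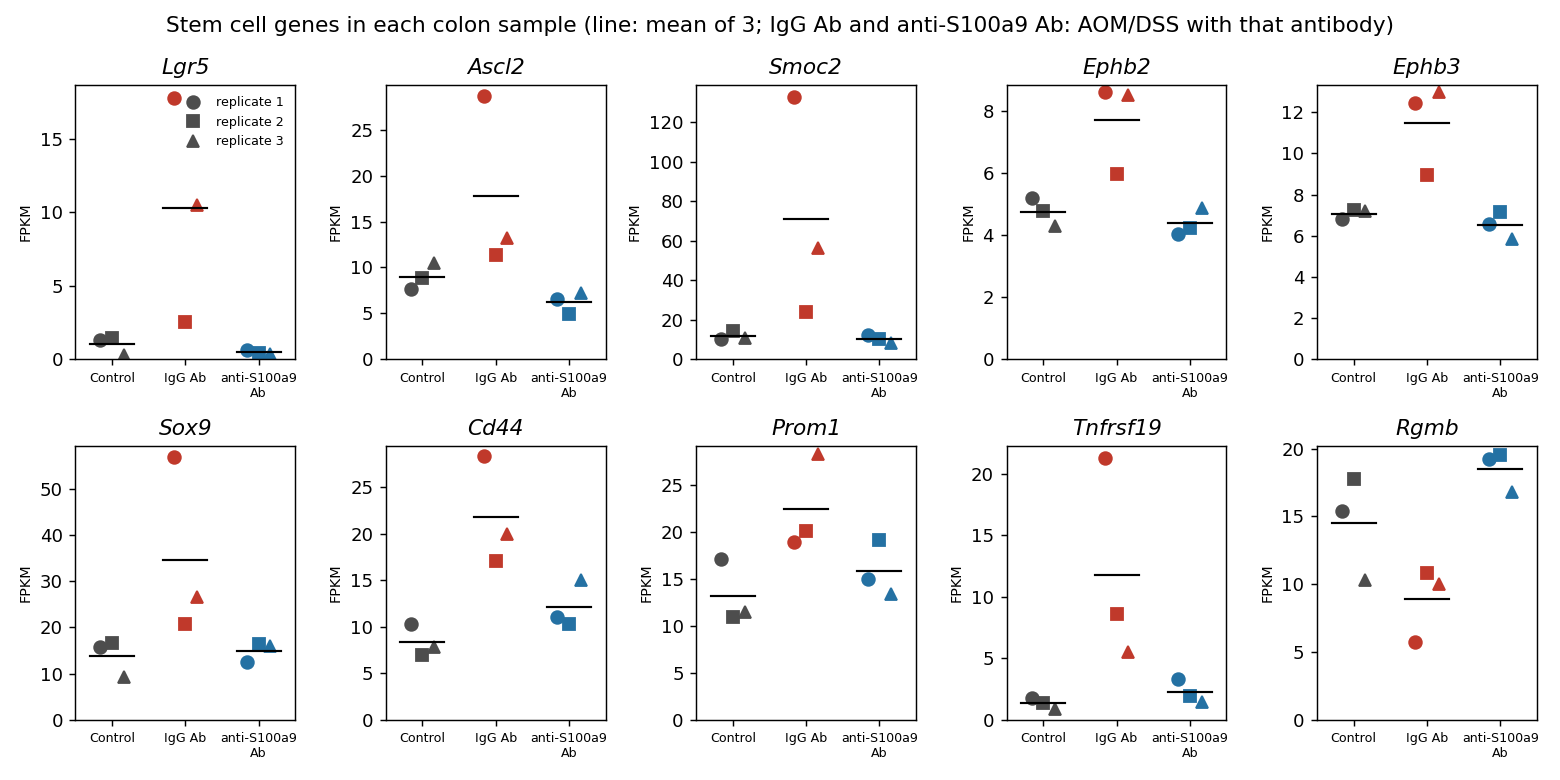
FPKM of the 10 genes in each of the 9 colon samples. The x axis gives the groups (Control in grey, IgG, drawn as IgG Ab, in red, and anti-A9, drawn as anti-S100a9 Ab, in blue), the y axis FPKM from 0, each point is 1 mouse (circle, square and triangle for replicates 1, 2 and 3) and the horizontal line is the mean of the 3 mice. The IgG samples lie above every Control sample for 9 of the 10 genes, as for 20.7% of all genes tested. They lie below every anti-A9 sample for Rgmb, as for 18.5%.

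Of the 10 stem cell genes, 9 were higher in every IgG sample than in every Control sample, where 20.7% of all genes tested were. Rgmb alone was lower on average. In the anti-A9 samples, 8 of the 10 were below every IgG sample (28.5% of all genes were) and Rgmb was above every one (18.5% were). Between the anti-A9 and the Control samples, no member passed the test, where only 0.0131% of all genes did. The differences from Control ran from 0.67 for Ephb2 and Ephb3 to 3.11 for Lgr5 on the log2 scale.

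Lgr5, the R-spondin receptor that marks the crypt base columnar stem cells (ENSMUSG00000020140, chromosome 10, 115450311 to 115587780 on the minus strand of GRCm38), had the lowest mean of the 10 in the Control samples, at 1.27, 1.46 and 0.265 FPKM (in replicate 2 Tnfrsf19 was lower). It stood at 17.8, 2.54 and 10.5 FPKM in the IgG samples and at 0.623, 0.440 and 0.333 FPKM in the anti-A9 samples. The IgG samples overlapped with neither of the other groups, although replicate 1 was 7.00 times as high as replicate 2. Lgr5 rose by 3.11 ± 0.75 (SE, n = 3 per group, limma adjusted p = 0.0325) from Control to IgG and fell by 3.84 ± 0.75 (adjusted p = 0.0144) from there to anti-A9. The last group's mean was 4.53% of that of the IgG samples.

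Smoc2, a secreted matricellular protein enriched in Lgr5 cells (ENSMUSG00000023886, chromosome 17, 14279506 to 14404790, plus strand), measured 10.3, 14.2 and 10.4 FPKM in Control and 133, 23.8 and 56.4 FPKM in IgG. It measured 12.0, 10.1 and 8.10 FPKM in anti-A9. The order of the IgG samples was the same as for Lgr5, and the lowest of them still lay above all samples of both other groups. Smoc2 rose by 2.28 ± 0.51 (limma adjusted p = 0.0256) over Control and fell by 2.49 ± 0.51 (adjusted p = 0.0166) with anti-S100a9 antibody. With a mean of 70.9 ± 55.8 FPKM (SD, n = 3) it became the highest of the 10 genes in IgG, from the fourth place in Control.

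Tnfrsf19, also called Troy, a receptor of the TNF receptor superfamily and a Wnt target in stem cells (ENSMUSG00000060548, chromosome 14, 60963875 to 61046490, minus strand), was at 1.78, 1.40 and 0.845 FPKM in Control. It was at 21.3, 8.56 and 5.49 FPKM in IgG and at 3.35, 1.94 and 1.45 FPKM in anti-A9. The IgG samples were again apart from both other groups, which overlapped with each other. Its rise of 2.86 ± 0.51 (limma adjusted p = 0.0111) and its fall of 2.19 ± 0.51 (adjusted p = 0.0224) are not independent evidence, since Tnfrsf19 was in a panel that the study chose on these samples for a rise and a fall.

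Ascl2, a transcription factor that controls the stem cell program of the crypt (ENSMUSG00000009248, chromosome 7, 142966829 to 142969264, minus strand), had 7.60, 8.81 and 10.4 FPKM in Control and 28.7, 11.4 and 13.2 FPKM in IgG. It had 6.58, 4.94 and 7.16 FPKM in anti-A9. The 3 groups did not overlap, with anti-A9 lowest, which was the case for no other member. The difference over Control, 0.87 ± 0.33, did not pass (limma adjusted p = 0.12), whereas Ascl2 fell by 1.39 ± 0.33 with anti-S100a9 antibody (adjusted p = 0.0232).

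Rgmb, a cell surface co-receptor for BMP ligands (ENSMUSG00000048027, chromosome 17, 15803188 to 15831039, minus strand), went the other way. Its values were 15.4, 17.7 and 10.3 FPKM in Control, 5.77, 10.8 and 10.0 FPKM in IgG, and 19.3, 19.5 and 16.8 FPKM in anti-A9. Control replicate 3 lay among the IgG samples, so that those groups overlapped, while the AOM/DSS groups did not. The difference from Control to IgG was -0.72 ± 0.27 (limma adjusted p = 0.119), and Rgmb rose by 1.10 ± 0.27 (adjusted p = 0.0258) with anti-S100a9 antibody. The highest of the 10 genes by mean FPKM in Control (14.5 ± 3.78) and in anti-A9 (18.5 ± 1.51), it ranked ninth in IgG (8.88 ± 2.72, SD, n = 3 each).

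Ephb2 and Ephb3 are receptor tyrosine kinases that hold cells at their place along the crypt by repulsion from ephrin-B ligands, and both are highest at the base. Ephb2 (ENSMUSG00000028664, chromosome 4, 136647539 to 136835988, minus strand) measured 5.19, 4.78 and 4.29 FPKM in Control, 8.61, 5.95 and 8.52 in IgG and 4.02, 4.23 and 4.87 in anti-A9. Ephb3 (ENSMUSG00000005958, chromosome 16, 21204755 to 21223305, plus strand) measured 6.79, 7.24 and 7.19 FPKM, 12.4, 8.97 and 12.97 FPKM, and 6.56, 7.15 and 5.84 FPKM in the same groups. Both receptors had their lowest IgG value in replicate 2, above all samples of both other groups. Ephb2 differed from Control by 0.67 ± 0.19 (limma adjusted p = 0.0561) and fell by 0.79 ± 0.19 with anti-S100a9 antibody (adjusted p = 0.025). Ephb3 rose by 0.67 ± 0.17 (adjusted p = 0.0408) and fell by 0.79 ± 0.17 (adjusted p = 0.0194).

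Sox9, a transcription factor of crypt base and progenitor cells (ENSMUSG00000000567, chromosome 11, 112782224 to 112787760, plus strand), had 15.7, 16.6 and 9.17 FPKM in Control, 56.9, 20.6 and 26.5 FPKM in IgG, and 12.5, 16.3 and 15.9 FPKM in anti-A9. The IgG samples were above all others, yet the spread among them was wide and neither difference passed. These were 1.23 ± 0.37 over Control (limma adjusted p = 0.0654) and -1.08 ± 0.37 with anti-S100a9 antibody (adjusted p = 0.0663).

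Cd44, a hyaluronan receptor that is a Wnt target in crypt cells and is also expressed on leukocytes and fibroblasts (ENSMUSG00000005087, chromosome 2, 102811141 to 102901665, minus strand), measured 10.3, 6.94 and 7.83 FPKM in Control and 28.4, 17.0 and 19.9 FPKM in IgG. It measured 11.1, 10.3 and 14.96 FPKM in anti-A9, below each IgG sample and partly above Control. Cd44 rose by 1.36 ± 0.24 (limma adjusted p = 0.0107) over Control and fell by 0.83 ± 0.24 (adjusted p = 0.0414) with anti-S100a9 antibody. The summed level of 7 leukocyte markers was 298 to 971 FPKM in Control, 372 to 635 in IgG and 695 to 889 in anti-A9. By limma 0 of the 7 were called between any of these groups. Of all genes, 11.2% were called in IgG against Control, 21.1% between the AOM/DSS groups and only 0.0131% in anti-A9 against Control. At an unadjusted p under 0.05, 0 differed in IgG over Control and 2 were higher with anti-S100a9 antibody. Itgam differed by 0.47 ± 0.52 in IgG over Control. Between anti-A9 and Control, 1 of the 7, Cd68, was higher at an unadjusted p under 0.05. It was also higher in every anti-A9 sample, as were 17.3% of all genes. Of 5 fibroblast markers, Col1a1, Col1a2 and Pdgfra were called higher over Control (2.44 ± 0.61, 1.75 ± 0.46 and 0.96 ± 0.21), where 8.18% of all genes were. With anti-S100a9 antibody, Col1a1 and Col1a2 were called lower (-2.54 ± 0.61 and -1.53 ± 0.46), where 14.4% of all genes were. Pdgfra (-0.38 ± 0.21), Lum (0.77 ± 0.50) and Dcn (0.32 ± 0.17) were not called there, and Dcn was higher in every anti-A9 than in every IgG sample. Within IgG, replicate 1 held the highest value of Cd44 and of Pdgfra (14.6 FPKM). The same sample held the lowest of Col1a1 (68.6 FPKM), Col1a2 (99.6 FPKM), Dcn and Lum. The part of either cell type in the values of Cd44 was not tested.

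Prom1, or CD133, a membrane glycoprotein of stem and progenitor cells (ENSMUSG00000029086, chromosome 5, 43993620 to 44102032, minus strand), had 17.1, 10.97 and 11.4 FPKM in Control and 18.9, 20.1 and 28.3 FPKM in IgG. It had 14.9, 19.2 and 13.3 FPKM in anti-A9, whose highest sample lay above the lowest IgG sample. The difference over Control was 0.77 ± 0.23 (limma adjusted p = 0.0669) and that with anti-S100a9 antibody was -0.49 ± 0.23 (adjusted p = 0.15), the only one of the 10 between the AOM/DSS groups whose unadjusted p was above 0.05.

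The first question was which of these genes differed between the IgG samples, labelled adenocarcinoma, and the Control samples, labelled normal mucosa. Of the 10, 5 were called higher in IgG than in Control (Lgr5, Smoc2, Tnfrsf19, Ephb3 and Cd44) and 0 lower (1, Rgmb, at an unadjusted p under 0.05), where 8.18% of all genes tested were called higher and 3.01% lower. The unadjusted p was under 0.05 for all 10, against 29.5% of all genes. At the study's thresholds (unadjusted p under 0.05 and over 2-fold) 5 were higher (Lgr5, Smoc2, Tnfrsf19, Sox9 and Cd44), against 8.43% of all genes. Groups did not overlap for 9 of the 10, all higher, where 20.7% of all genes were higher and 10.2% lower without overlap. The median difference was 1.05 over the 10 genes and 0.09 over all genes tested. The calls rested on few samples: 2 members were called without any 1 of the Control samples or without IgG replicate 3, and 3 without IgG replicate 1 or without any 1 of the anti-A9 samples, which enter the estimate of the spread. Without IgG replicate 2, 7 were called. Tnfrsf19 and Cd44 were called in all 9 of these fits, Smoc2 in 5, and Lgr5 and Ephb3 in 1 each, with adjusted p of at most 0.0895 for Lgr5, 0.0795 for Smoc2 and 0.113 for Ephb3.

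**Figure D2:**
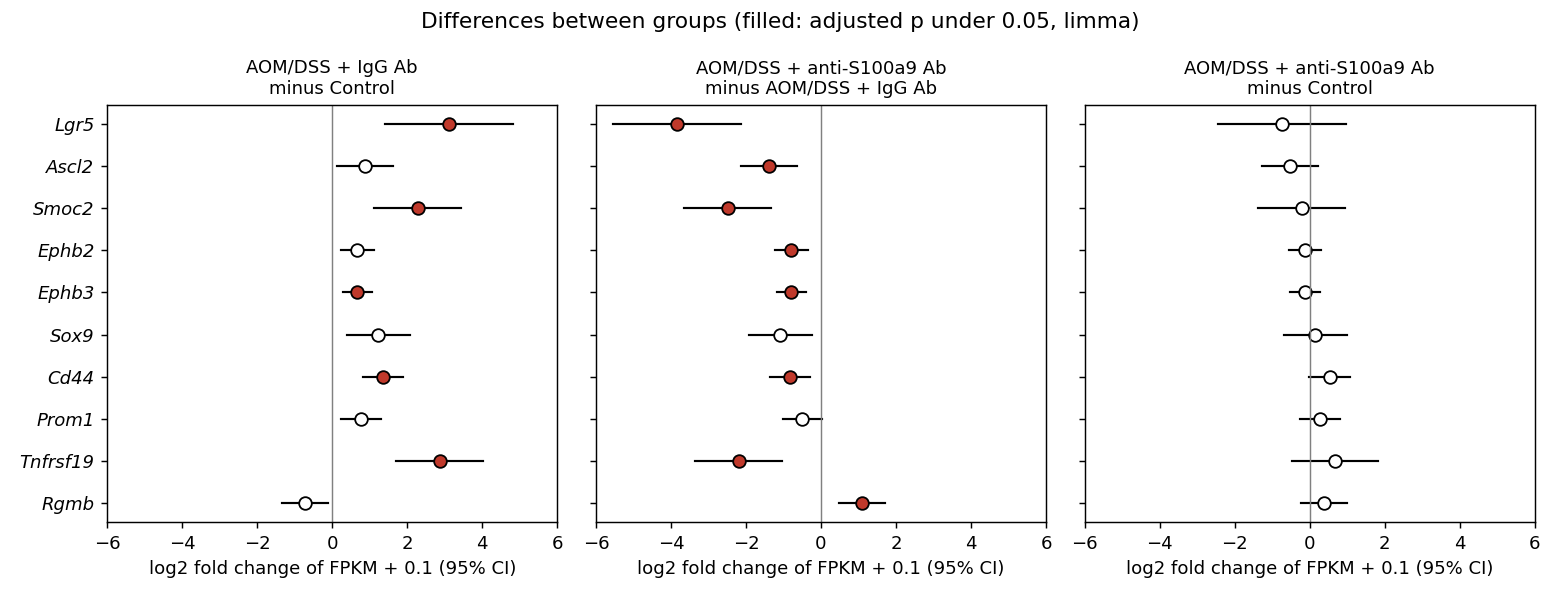
Log2 fold changes of FPKM + 0.1 (x axis) of the 10 genes (y axis) in the 3 comparisons, with lines for the 95% confidence interval from limma and filled points for an adjusted p under 0.05. In the left panel 9 genes lie to the right of 0 and Rgmb to the left, in the middle panel the sides are exchanged, and in the right panel each interval contains 0.

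The next question was how the anti-A9 samples differed from the IgG samples within AOM/DSS. Here 7 of the 10 genes were called lower (Lgr5, Smoc2, Tnfrsf19, Ascl2, Ephb2, Ephb3 and Cd44) and 1, Rgmb, higher, where 14.4% of all genes were called lower, 6.72% higher and 21.1% in either direction. The unadjusted p was under 0.05 for 9 of the 10, against 39.1% of all genes, and 6 were also past 2-fold (Lgr5, Ascl2, Smoc2, Tnfrsf19 and Sox9 lower, Rgmb higher), against 8.38% of all genes lower and 7.64% higher. Groups did not overlap for 8 genes that were lower, against 28.5% of all genes, and for 1 that was higher, against 18.5%. The median difference was -0.95 over the 10 genes and -0.06 over all genes tested. Without anti-A9 replicate 2, 0 of the 10 were called (limma adjusted p from 0.0558, for Lgr5, to 0.143). The number called lower was 1 without replicate 3 and 3 without replicate 1 of that group, and 4 without IgG replicate 3. The call of Rgmb was lost without IgG replicate 1 and without each of the anti-A9 samples, with an adjusted p of at most 0.0874. The direction of each of the 10 differences from Control to IgG and between the AOM/DSS groups was the same whichever sample was left out and under each scaling, filter, pseudocount and fit that was tried.

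The last question was how the genes stood against Control after anti-S100a9 antibody. No member was called by limma (adjusted p from 0.318 to 0.862), where 0.0131% of all genes were (0.00655% in each direction), and 0 of the 10 had an unadjusted p under 0.05, against 16% of all genes (with over 2-fold, 2.28% higher and 0.864% lower). The differences ran from -0.73 ± 0.75 for Lgr5 to 0.67 ± 0.51 for Tnfrsf19, with 95% intervals of -2.43 to 0.97 and -0.48 to 1.83. For Ephb2 and Ephb3 the intervals were narrower, -0.55 to 0.31 and -0.51 to 0.27, and for Cd44 the interval was -0.01 to 1.07 (adjusted p = 0.318). Intervals of this width do not show that the levels were equal. Only for Ascl2 did the groups not overlap, each anti-A9 sample being lower, as for 13.7% of all genes (17.3% were higher in each sample). This comparison shares its samples with both of the others.

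**Figure D3:**
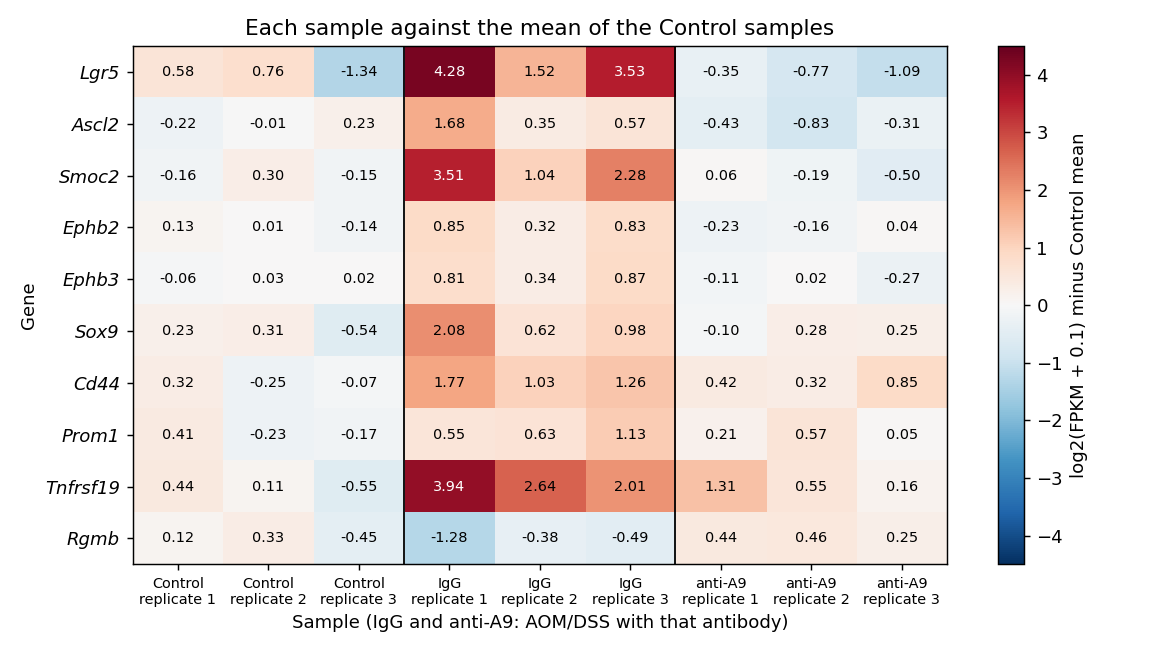
Log2(FPKM + 0.1) of each gene (rows) in each sample (columns) minus the mean of the Control samples, printed in each cell and shown by color from blue (below) to red (above). IgG replicate 1 holds the extreme values, 4.28 for Lgr5, 3.94 for Tnfrsf19 and -1.28 for Rgmb, and replicate 2 the smallest differences of that group for most genes.

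For every member but Rgmb, the SD of FPKM was larger among the IgG samples than within either other group. Replicate 1 held the highest value of the group for 7 of the 10 genes and replicate 2 the lowest for 7, and Rgmb was lowest in replicate 1 and highest in replicate 2. The ratio of the highest to the lowest IgG sample was 7.00 for Lgr5, 5.56 for Smoc2, 3.87 for Tnfrsf19, 2.76 for Sox9 and 2.53 for Ascl2, and 1.45 for both Ephb2 and Ephb3. In order of mean FPKM, the Control samples ran from Rgmb (14.5), Sox9 (13.8), Prom1 (13.2), Smoc2 (11.7), Ascl2 (8.95), Cd44 (8.37) and Ephb3 (7.07) to Ephb2 (4.75), Tnfrsf19 (1.34) and Lgr5 (0.998), where neighbours overlapped in 7 of the 9 pairs, the exceptions being Ephb3 over Ephb2 and Ephb2 over Tnfrsf19. All 9 neighbouring pairs overlapped in IgG, where Ephb2 was last (7.69) and Lgr5 eighth (10.3).

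Over the 9 samples, Lgr5 had a Pearson correlation of log2 values of 0.954 with Smoc2, 0.948 with Ephb2 and 0.928 with Ephb3, and Rgmb one of -0.956 with Ascl2 and -0.848 with Smoc2. Prom1 followed the others least, with 0.286 for Ascl2. These values describe 9 samples in 3 groups, so the differences between the groups enter them. Among 13073 tested genes that reached a group mean of 1 FPKM, the profile most like that of Lgr5 was that of Arl14 (0.985), followed by Tmprss13 (0.969) and Hopx (0.967). The nearest to Sox9 were Slc31a1 (0.992) and Ctnnb1, the gene of beta-catenin (0.982), to Tnfrsf19 Kcnj2 (0.990) and the transcription factor Prox1 (0.988), and to Cd44 Il1b (0.983), the gene of interleukin-1 beta, which is in the study's panel as well. For Ascl2 it was Plod1 (0.998), for Smoc2 Abhd4 (0.992), for Ephb2 Slco4a1 (0.976), for Ephb3 Cdc42ep1 (0.987), for Prom1 Erlec1 (0.942) and for Rgmb Pacsin2 (0.992).

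Promoter sequences are printed for some of the members called lower with anti-S100a9 antibody (Ascl2, Ephb3 and Tnfrsf19) and for the member that moved the other way (Rgmb). RefSeq windows on GRCm38.p6, from 250 bases before a start site to 50 bases from it on, were present for 7 of the 10 genes (Ascl2, Cd44, Ephb2, Ephb3, Prom1, Rgmb and Tnfrsf19), in 11 windows, and not for Lgr5, Smoc2 and Sox9. They were searched on both strands for the words bound by TCF/LEF factors, through which beta-catenin acts (the word AACAAAG or the word ATCAAAG or the word TACAAAG or the word TTCAAAG), and for CAGCTG, an E-box of the kind bound by basic helix-loop-helix factors such as Ascl2. Capitals mark these words in the sequences, which are given 5′ to 3′ on the strand of the gene. The windows of Cd44, Ephb2 and Prom1, which hold none of these words, are not printed. The windows lie at chr7:142969215-142969514 (minus) for Ascl2, chr16:21204545-21204844 (plus) for Ephb3, chr14:61037938-61038237 (minus) for Tnfrsf19 and chr17:15831016-15831315 (minus) for Rgmb, which has 2 more windows, as Tnfrsf19 has 1 more.
Ascl2: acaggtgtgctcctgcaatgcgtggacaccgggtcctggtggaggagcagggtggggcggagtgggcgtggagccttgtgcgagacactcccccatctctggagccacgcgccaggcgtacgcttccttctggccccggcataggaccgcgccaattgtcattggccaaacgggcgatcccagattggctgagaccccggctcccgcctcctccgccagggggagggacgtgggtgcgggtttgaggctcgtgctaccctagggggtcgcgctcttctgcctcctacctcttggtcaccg
Ephb3: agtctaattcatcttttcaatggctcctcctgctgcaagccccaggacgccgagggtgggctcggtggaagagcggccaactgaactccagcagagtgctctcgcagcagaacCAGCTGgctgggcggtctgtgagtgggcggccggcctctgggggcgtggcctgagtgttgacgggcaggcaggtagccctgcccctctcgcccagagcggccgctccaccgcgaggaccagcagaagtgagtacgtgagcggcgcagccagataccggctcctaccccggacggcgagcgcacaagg
Tnfrsf19: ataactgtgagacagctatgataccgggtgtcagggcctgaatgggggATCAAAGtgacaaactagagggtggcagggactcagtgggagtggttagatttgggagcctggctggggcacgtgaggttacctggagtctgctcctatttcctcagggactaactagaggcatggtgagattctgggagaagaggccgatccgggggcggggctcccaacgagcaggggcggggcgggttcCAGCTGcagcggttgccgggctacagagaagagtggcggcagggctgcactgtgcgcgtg
Rgmb: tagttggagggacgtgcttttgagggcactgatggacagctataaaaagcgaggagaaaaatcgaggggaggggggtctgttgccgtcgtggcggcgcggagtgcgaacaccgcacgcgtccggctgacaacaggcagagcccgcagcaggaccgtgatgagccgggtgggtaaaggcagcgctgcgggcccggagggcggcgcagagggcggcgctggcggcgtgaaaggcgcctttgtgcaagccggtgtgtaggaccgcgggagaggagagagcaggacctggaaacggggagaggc
A TCF/LEF word was in 1 of the 11 windows, that of Tnfrsf19 shown here, at position -202 from its start site, and in 16.9% of 32841 RefSeq promoters of the same length. CAGCTG was in 2 of the 11, at -137 in Ephb3 and at -10 in Tnfrsf19, and in 16.3% of all promoters. The windows shown for Ascl2, Ephb3 and Rgmb had a GC content of 67.0%, 66.7% and 66.0%, against a median of 52.7% for all promoters, and that of Tnfrsf19 had 60.7%. A match is a stretch of letters and not a bound site, and a window without one says nothing of the factors.

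Several other genes of the crypt base rose and fell as well, while others did not. A list of 14 such genes was chosen with earlier results of these data known, and 13 were tested. Olfm4 was not, listed at no more than 0.0816 FPKM in any sample. Of the 13, 0 were called lower in IgG than in Control by limma (1, Aqp4, at an unadjusted p under 0.05). The median difference was 1.89 against 0.09 over all genes. Called higher were 8 genes, where 8.18% of all genes were. They were the RNA-binding proteins Msi1 (3.43 ± 0.42) and Mex3a (3.42 ± 0.45), the Wnt feedback inhibitors Axin2 (3.03 ± 0.45), Rnf43 (2.44 ± 0.40) and Znrf3 (1.89 ± 0.46), the secreted proteins Gkn3 (2.42 ± 0.60) and Igfbp4 (1.74 ± 0.25), and the transcription factor Dach1 (1.94 ± 0.53, limma adjusted p = 0.0498). Axin2, which the study's panel from these samples also holds, was at 3.87 to 5.84 FPKM in Control, 26.5 to 98.5 in IgG and 7.14 to 9.05 in anti-A9. With anti-S100a9 antibody, 7 of the 13 were called lower, where 14.4% of all genes were. These were all of the 8 but Znrf3 (-1.34 ± 0.46, limma adjusted p = 0.0646). The median was -1.34 against -0.06, and 0 were called higher (1 at an unadjusted p under 0.05). Between anti-A9 and Control 0 of the 13 were called by limma, where only 0.0131% of all genes were. At an unadjusted p under 0.05, 2 were higher, while 6 were higher in every anti-A9 sample, against 17.3% of all genes. Msi1, Mex3a and Rnf43 were called in both comparisons whichever sample was left out. Over Control, Axin2 and Igfbp4 were called in all 9 of these fits too, Gkn3 and Znrf3 in 3 each (adjusted p up to 0.112 and 0.0804) and Dach1 in 1 (up to 0.115), whose call was also lost with other pseudocounts, filters and scalings. With anti-S100a9 antibody, Axin2 was called in 8 of the 9, Gkn3 and Igfbp4 in 6 each and Dach1 in 3. Aqp4, a water channel found in stem cells of the proximal colon, had 1.56, 29.7 and 5.40 FPKM in IgG and 19.1 to 62.1 FPKM in Control (-2.29 ± 0.92, adjusted p = 0.138), overlapping like Rgmb. Slc12a2, Cdca7, Cdk6 and Soat1 were not called in either comparison. Slc12a2 was at 19.5 to 41.9 FPKM in Control, 33.2 to 39.6 in IgG and 45.8 to 49.9 in anti-A9. Its differences were 0.20 ± 0.26 over Control and 0.40 ± 0.26 with anti-S100a9 antibody (limma adjusted p = 0.634 and 0.272).

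**Figure D4:**
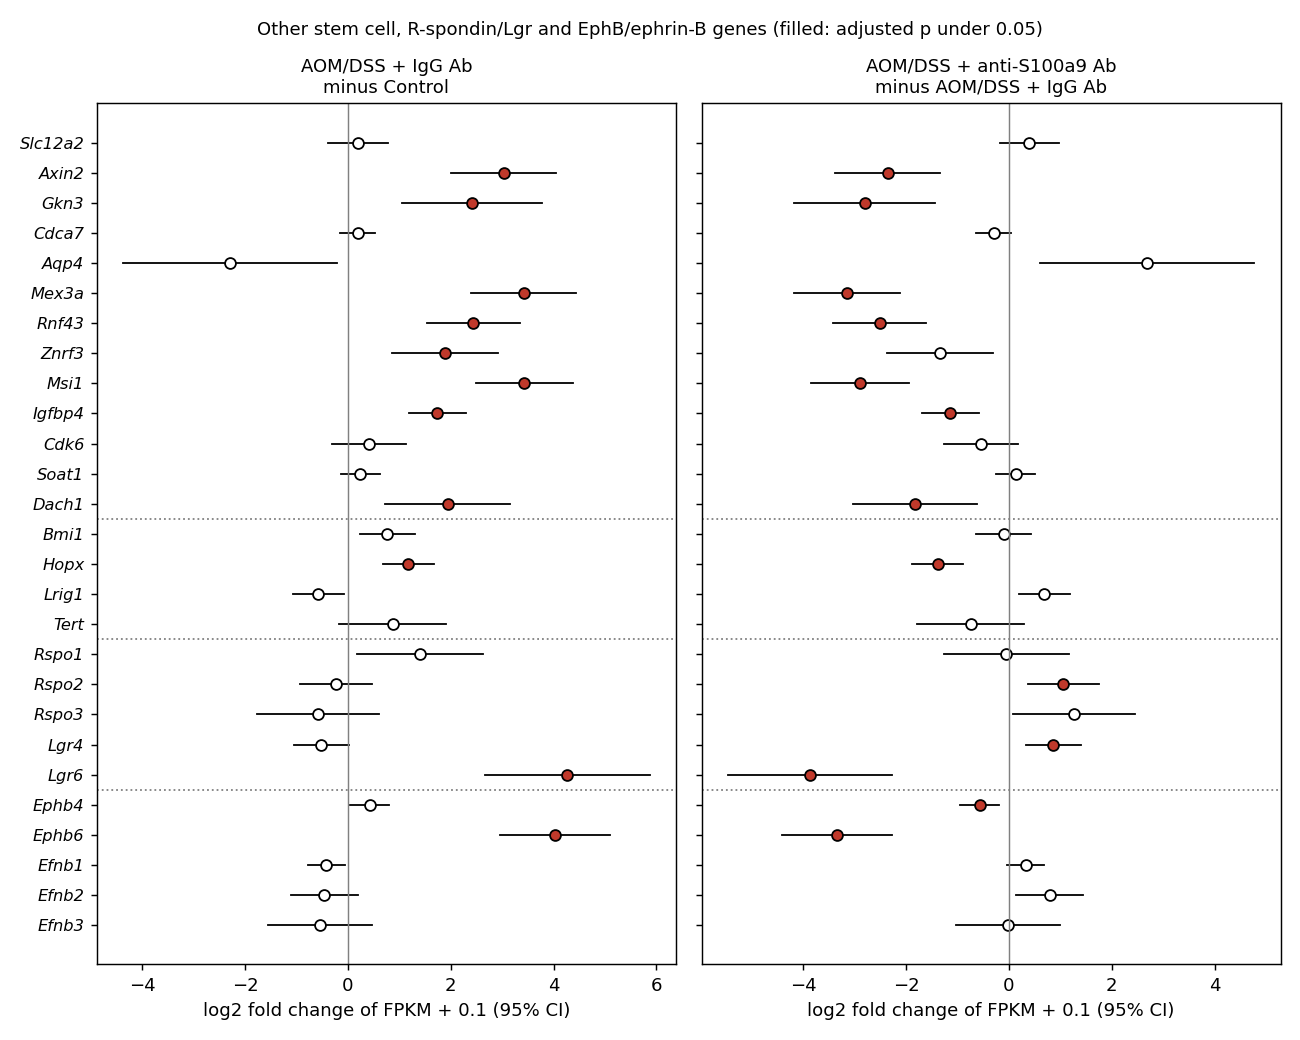
Log2 fold changes of FPKM + 0.1 (x axis) with 95% confidence intervals for the tested genes of 4 lists (y axis, parted by dotted lines), namely other crypt base genes, reserve stem cell genes, R-spondins with their other Lgr receptors, and other EphB receptors with ephrin-B ligands; filled points have an adjusted p under 0.05. At this pseudocount Lgr6 and Ephb6 have the largest rises shown (4.27 and 4.03), but with a pseudocount of 1 they were 1.86 and 3.25. Lgr4 and Rspo2 lie right of 0 in the panel on anti-S100a9 antibody.

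Among genes ascribed to a slowly dividing reserve population, 1 of 4, Hopx, was called higher over Control, where 8.18% of all genes were. The same gene alone was called lower with anti-S100a9 antibody, where 14.4% of all genes were. Hopx, a homeodomain protein, was at 20.8 to 24.7 FPKM in Control, 36.5 to 70.8 in IgG and 18.0 to 20.9 in anti-A9, rising by 1.18 ± 0.22 (limma adjusted p = 0.013) and falling by 1.38 ± 0.22 (adjusted p = 0.00807). Lrig1, an inhibitor of ErbB signaling, had 17.2 to 27.8, 11.5 to 17.9 and 22.6 to 25.7 FPKM in these groups, with differences of -0.57 ± 0.22 (adjusted p = 0.123) and 0.69 ± 0.22 (adjusted p = 0.0543). Bmi1 was higher in every IgG and every anti-A9 sample than in every Control sample. Its differences were 0.76 ± 0.24 and 0.66 ± 0.24 (limma adjusted p = 0.0704 and 0.301), with -0.10 ± 0.24 between the AOM/DSS groups (adjusted p = 0.782). Tert was not called (0.87 ± 0.46 and -0.75 ± 0.46).

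Both other receptors of the Lgr family were tested and lay on opposite sides. Lgr6, the relative of Lgr5, was at 0.0226 to 0.0463 FPKM in Control, 1.15 to 8.92 in IgG and 0.0163 to 0.212 in anti-A9. It rose by 4.27 ± 0.70 (limma adjusted p = 0.008) and fell by 3.87 ± 0.70 (adjusted p = 0.0119, and 0.0515 without anti-A9 replicate 2). Lgr4, the widely expressed receptor, was at 20.0 to 38.1, 18.1 to 23.9 and 34.2 to 42.5 FPKM, with a difference of -0.51 ± 0.24 (adjusted p = 0.188) from Control to IgG and a rise of 0.86 ± 0.24 (adjusted p = 0.0357) with anti-S100a9 antibody. Of the 4 R-spondins, the ligands of these receptors, Rspo2 was called higher with anti-S100a9 antibody (1.06 ± 0.31, limma adjusted p = 0.0413) at levels of at most 0.336 FPKM. Rspo3 differed by -0.58 ± 0.52 over Control and 1.27 ± 0.52 with anti-S100a9 antibody (adjusted p = 0.108), and Rspo4 was not tested. Rspo1 differed by 1.41 ± 0.54 over Control and -0.05 ± 0.54 with anti-S100a9 antibody (adjusted p = 0.123 and 0.957). It was higher in every anti-A9 than in every Control sample (1.36 ± 0.54, adjusted p = 0.301). With 1 sample left out, the call of Lgr4 held in 4 of 9 fits (lost without IgG replicate 1 or 3 and without each anti-A9 sample, adjusted p up to 0.114) and that of Rspo2 in 2 of 9 (Control replicate 3 or IgG replicate 2 left out, adjusted p up to 0.134).

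Of the other EphB receptors, Ephb6, which lacks kinase activity, was at 0.825 to 1.39 FPKM in Control, 13.1 to 34.5 in IgG and 1.12 to 3.22 in anti-A9. Ephb6 rose by 4.03 ± 0.47 (limma adjusted p = 0.00198) and fell by 3.34 ± 0.47 (adjusted p = 0.00575), and both calls held whichever sample was left out. Ephb4 fell with anti-S100a9 antibody (-0.57 ± 0.17, limma adjusted p = 0.0441, and up to 0.131 with 1 sample left out). It was higher in every IgG than in every Control sample but not called there (0.42 ± 0.17, adjusted p = 0.137). The ephrin-B ligands Efnb1, Efnb2 and Efnb3 were not called in either comparison, with -0.46 ± 0.29 (limma adjusted p = 0.32) and 0.79 ± 0.29 (adjusted p = 0.0787) for Efnb2. Efnb1 was lower in every IgG than in every Control sample (-0.42 ± 0.16, adjusted p = 0.116), with 0.32 ± 0.16 between the AOM/DSS groups (adjusted p = 0.157).

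**Figure D5:**
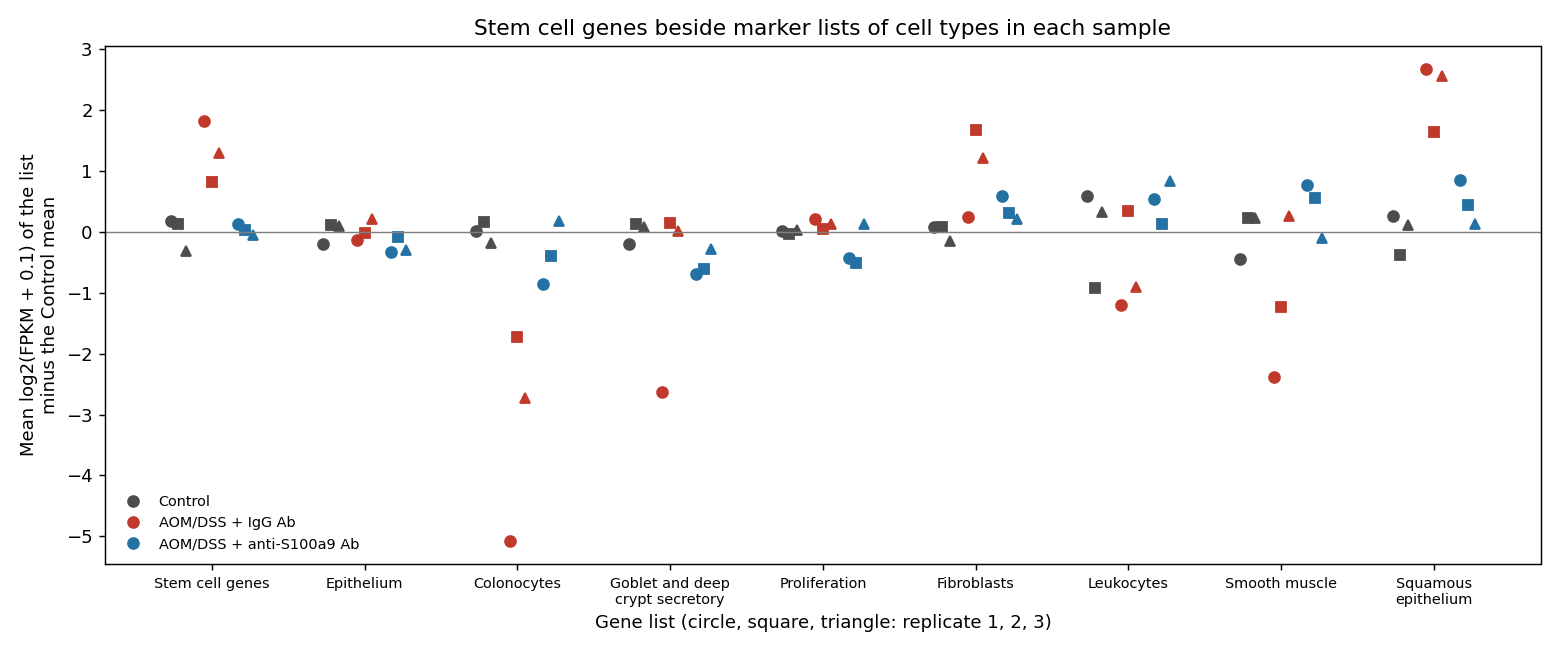
Mean log2(FPKM + 0.1) of each gene list in each sample minus its mean over the Control samples (y axis), for the 10 stem cell genes and 8 marker lists (x axis), with groups by color and replicates by symbol. The stem cell genes and the squamous markers are highest in IgG, the colonocyte markers are lowest there, most of all in replicate 1, and the epithelial markers are close to 0.

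Marker lists of cell types moved beside these genes, and their part in the results was not tested. The mean log2 level of the epithelial markers overlapped between all groups (8.58 to 8.90 in Control, 8.65 to 9.01 in IgG and 8.45 to 8.71 in anti-A9), and 1 of its 7 genes, Krt18, rose (1.19 ± 0.27, limma adjusted p = 0.0256) and fell (-1.42 ± 0.27, adjusted p = 0.0129). Relative to that level in the same sample, 9 members were higher in every IgG than in every Control sample (15.9% of all genes were), and with anti-S100a9 antibody 8 were lower in every sample (13% of all genes) and Rgmb higher (24.1%), while Cd44 overlapped (exact permutation p = 0.3, where 3 against 3 samples cannot give less than 0.1). With all genes centred on the same markers, 2 members, Lgr5 and Smoc2, were called lower with anti-S100a9 antibody, where 4.24% of all genes were, and 1, Rgmb, was called higher (1.36, adjusted p = 0.0175), where 7.74% were.

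Markers of mature colonocytes went opposite to the stem cell genes. All 6 (Slc26a3, Aqp8, Car1, Car4, Krt20 and Guca2a) were lower in every IgG sample than in every Control sample (10.2% of all genes were). Of the 6, 4 were called lower (3.01% of all genes), and 3 were called higher with anti-S100a9 antibody (6.72%). Their summed levels were 3033 to 3388 FPKM in Control, 199.6 to 1163 in IgG and 1349 to 2608 in anti-A9. Car4, a carbonic anhydrase of surface colonocytes, fell by 5.16 ± 1.06 (limma adjusted p = 0.0189) and rose by 4.58 ± 1.06 (adjusted p = 0.0219). Within IgG, replicate 1, with the highest mean of the stem cell genes (4.47), had the lowest of the colonocyte markers (3.29), and replicate 2 the lowest (3.46) and the highest (6.63). Of the 7 markers of goblet and deep crypt secretory cells 0 were called by limma between any of these groups. Between anti-A9 and Control, only 0.0131% of all genes were. In IgG over Control 1, Clca1, was lower at an unadjusted p under 0.05 (-2.52 ± 0.78), and Spink4 differed by 0.90 ± 0.67. Replicate 1 of IgG stood apart here too (summed levels of 1953 to 14558 FPKM in IgG and 8288 to 11565 in Control). Yet 5 of the 7 were lower in every anti-A9 than in every Control sample, against 13.7% of all genes.

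Of 8 proliferation genes, 0 were called over Control by limma (2 higher at an unadjusted p under 0.05). The median difference was 0.16, and that of Mcm5, which helps to license replication, was -0.52 ± 0.25. With anti-S100a9 antibody 3 were called lower (Ccnb1, Cdk1 and Birc5), where 14.4% of all genes were. Ccnb1 differed by -0.87 ± 0.20 there (limma adjusted p = 0.0216). Of the squamous epithelium markers, which mark skin and anal lining, 3 of 4 tested were called higher over Control, where 8.18% of all genes were. These were Krt14, Krt13 and Dsg3, the last listed at 0 in all Control samples. Summed levels were 0.899 to 2.06, 7.19 to 45.2 and 1.50 to 3.25 FPKM in Control, IgG and anti-A9. The squamous transcription factor Trp63 was listed at no more than 0.0223 FPKM in any sample, and Krt5 at no more than 0.468. The 5 fibroblast markers, of which Col1a1, Col1a2 and Pdgfra were called over Control, had a difference of -0.26 ± 0.50 for Lum and summed levels of 339 to 398, 429 to 1316 and 468 to 592 FPKM, and none was at 0. Col1a1 and Col1a2 are also in the study's panel from these samples, so that their direction is not independent evidence, and with 1 sample left out each was called over Control in 1 of 9 fits (adjusted p up to 0.11 and 0.121), Pdgfra in 5. Of 5 smooth muscle markers 0 were called over Control by limma (1 lower at an unadjusted p under 0.05). With anti-S100a9 antibody 1 was called higher, where 6.72% of all genes were (Myh11, 2.01 ± 0.54, limma adjusted p = 0.0331). That call held in 4 of 9 fits with 1 sample left out (adjusted p up to 0.103). Summed levels were 1579 to 2569, 443 to 2632 and 2023 to 3579 FPKM in Control, IgG and anti-A9.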

How the data were processed

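RNA of mouse colon was sequenced in 9 samples, 3 each of Control, IgG and anti-A9. The deposited tables, 1 per sample, hold FPKM values that the authors made from the reads, scaled by transcript length and library depth. That unit is stated nowhere and was read from the values. The submitters' processing notes name TopHat, Cufflinks, HTSeq, DESeq and GRCm38, without roles or versions, and the study's own test, DESeq, needs counts and was not repeated. Each table has 21544 rows, and summing the 46 repeated symbols left 21498. Genes reaching 0.1 FPKM in 3 or more samples (15278, all 10 members among them) were fitted on log2(FPKM + 0.1) with limma 3.58.1 (R 4.3.3). The model held all samples and an intensity trend and had 8.87 degrees of freedom in total, and p-values were adjusted by Benjamini-Hochberg over all 15278 genes. Whether reads were assigned by strand is not given in the sources used here. Two-sided exact permutation tests compared members relative to the epithelial marker level. The scripts were tested on simulated data.

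The members and the gene lists were chosen with earlier results of these data known. Named beside the members are, from each list, the tested genes with the largest rise and fall in IgG against Control among those reaching a group mean of 1 FPKM, every called gene of the other stem, R-spondin/Lgr and EphB/ephrin-B lists, and for each member the genes of highest correlation. Other genes are named only to spell out a list or a count, and were chosen after their values were seen. The labels call the samples biological replicates and number them 1 to 3 per group. Gene positions are from GENCODE M21 (GRCm38). Alternatives changed the pseudocount (1 and 0.01), the filter, the groups fitted, the block, the scaling, the trend, the call rule (the study's unadjusted p under 0.05 and over 2-fold) and the samples, each left out in turn. Python 3.11.15 with pandas 2.3.3, numpy 2.4.6, scipy 1.17.1 and matplotlib 3.10.9 made the tables and figures.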

Additional observations from a re-analysis of the deposited data

How the results depend on the processing

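With 3 samples per group and no fragment counts, precision rests on the spread between mice. For the members, 2 instead of 5 genes were called higher in IgG than in Control with only the 2 groups in the fit, and 2 to 7 with 1 sample left out. Between the AOM/DSS groups, 2 instead of 7 were called lower after centring on the epithelial markers, and with 1 sample left out 0 to 8 were called lower and 0 to 1 higher. Against the epithelial level, the members that did not overlap were, with 1 sample left out, 0 to 1 lower in IgG than in Control, and in anti-A9 than in Control 1 to 7 higher and 0 to 1 lower.

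For the other lists together, 18 genes were called higher and 4 lower in IgG than in Control. The counts were 9 and 2 with only the 2 groups in the fit, 8 lower at the study's thresholds, and 9 to 16 higher and 0 to 9 lower with 1 sample left out. Between the AOM/DSS groups, 6 genes were called higher and 20 lower. The counts higher were 10 under quantile normalization, 12 after epithelial centring and 14 at the study's thresholds, and the count lower was 13 after centring. With 1 sample left out they were 1 to 13 higher and 6 to 19 lower. The alternatives for these lists that concern filters, the groups in the fit, the trend, the thresholds and single samples were chosen after seeing the data, as were those for the epithelial level. The fits with fewer samples have fewer degrees of freedom, and otherwise the cause was not tested.

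Directions were exchanged only where nothing was called. After epithelial centring, anti-A9 minus Control was 0.026 for Smoc2, 0.12 for Ephb2 and 0.12 for Ephb3. With 1 sample left out, it ran from -0.13 to 0.30 for Sox9, IgG minus Control ran from -0.45 to 0.0055 for Rspo2 and from -0.94 to 0.25 for Lum, and anti-A9 minus IgG ran from -0.33 to 0.21 for Mcm5, from -0.14 to 0.18 for Krt19 and from -0.50 to 0.32 for Itgam. Anti-A9 minus IgG was also 0.11, 0.093 and 0.23 for Mcm5 under quantile normalization, median-of-ratios scaling and epithelial centring, and -0.011 for Itgam with a pseudocount of 1.

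Scaling moved the share of calls that were higher over all genes. In IgG against Control, 1250 genes were called higher and 460 lower, and 947 and 631 under quantile normalization. Between the AOM/DSS groups these numbers were 1026 and 2193, with 1389 and 1706 under quantile normalization, 1327 and 1505 under median-of-ratios scaling and 1183 and 648 after epithelial centring, which shifted the median of all genes to 0.20 there and to 0.28 against Control. Of the calls in the other lists, 8 of 18 higher and 0 of 4 lower over Control, and 1 of 6 higher and 5 of 20 lower between the AOM/DSS groups, held in all 9 fits with 1 sample left out (Dsg3 was tested, and called, in 6 of them). The replicate numbers do not pair the samples: deviations of same-numbered samples correlated between -0.187 and 0.249, and 4 of 9 samples correlated best with their own number. With the replicate block, 4 members were called higher over Control, and 7 were called lower and 1 higher with anti-S100a9 antibody.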
